A study of Mus musculus with 18 samples.

Results

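Androgens and estrogens of the ovary were followed here through 5 transcripts in whole ovaries of aged and young mice: Cyp17a1 (ENSMUSG00000003555), Insl3 (ENSMUSG00000079019), Cyp19a1 (ENSMUSG00000032274), Hsd17b1 (ENSMUSG00000019301) and Srd5a1 (ENSMUSG00000021594). They were chosen by symbol from the 55416 genes of the deposited tables. Each of the 5 had counts in all 18 libraries, and all 5 were among the 16959 genes that passed the filter on low counts. The study compared 3 groups of 6 wild-type female Balb/c mice, 1 library of ovarian RNA per mouse. OC+SM mice were 40 weeks old and received Samul-tang (SM), an herbal decoction, by mouth at 2.5 g/kg. OC mice were 40 weeks old and received distilled water. YC mice were 8 weeks old and received distilled water. Dosing was 5 times a week for 4 weeks in all groups, and the labels do not say whether the ages refer to its start or its end. All 18 mice were then primed with pregnant mare serum gonadotropin (5 IU) and, after 48 hours, given an ovulatory dose of human chorionic gonadotropin (hCG, 5 IU). Ovaries were collected 16 hours after hCG. The values therefore describe hormone-primed ovaries after the ovulatory stimulus and not the unstimulated cycle, and the labels state that cages were arranged so that the cycles of the aged groups ran together. No label ties single mice to a cage.

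Theca cells and granulosa cells make sex steroids together. Theca and interstitial cells express Cyp17a1, the enzyme with hydroxylase and lyase activity that turns progestogens into androgens, and they secrete Insl3, a relaxin-family peptide hormone whose receptor is Rxfp2. Granulosa cells take up the androgen and convert it to estrogen with aromatase, the product of Cyp19a1, and with Hsd17b1, which reduces estrone to the more active estradiol. Srd5a1 encodes a steroid reductase that diverts testosterone to dihydrotestosterone and also reduces progesterone. The luteinizing hormone surge, which hCG imitates, turns both cell types into luteal cells, and in rodents the ovarian levels of Cyp17a1 and Cyp19a1 transcripts are known to decline after it. In whole ovaries, fewer cells of a type and less RNA per cell cannot be told apart.

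Levels are given as CPM, counts per 1000000 counts of the library after TMM scaling. In units of 1000000 counts, the libraries held 14.2 to 20.35 in OC+SM ovaries, 11.61 to 13.43 in OC ovaries and 9.05 to 14.15 in YC ovaries. The OC+SM libraries were deeper than the OC libraries (17.24 ± 2.05 against 12.49 ± 0.71 in the same units, SD, n = 6 each, two-sided exact permutation p = 0.00216, the smallest p that 6 libraries against 6 can give). They were also deeper than the YC libraries (12.44 ± 1.89, SD, n = 6, two-sided exact permutation p = 0.00216). The lowest member count was 15, for Cyp19a1 in OC+SM 6, with an exact Poisson interval of 8.4 to 24.7 that covers counting error only. One young library, YC 3, stood apart. It was the shallowest, and its Lhcgr (414 CPM against 164 to 232 in the other 5 YC libraries) and Fshr (8.84 against 2.48 to 4.65) were high, while its Star (697 against 1380 to 1800) and Fdx1 (647 against 1340 to 1740) were low. Cyp11b1 had 0.533 CPM in YC 3 and 33.2 to 175 CPM in the other 17 libraries. The log2 fold changes of the 5 members against YC are given with and without it. Spreads within groups, ratios and similar patterns include it.

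The labelled tissue was checked against cell type markers. The luteal genes Star, Cyp11a1 and Hsd3b1 were abundant in all libraries, the theca and interstitial list of 10 genes and the granulosa list of 14 genes each had counts in every group, and Amh, a granulosa hormone of growing follicles, had 0 to 3 counts per library. Cyp11b1, an enzyme of adrenal glucocorticoid synthesis, was present, but the other 3 adrenal cortex markers were not: Cyp11b2 had 0 counts in all 18 libraries, Cyp21a1 reached 0.342 CPM at most, and Mc2r had 1 count in 1 OC library. The oviduct markers summed to 3.14 to 6.19 CPM in OC+SM, 2.92 to 5.15 CPM in OC and 4.03 to 5.99 CPM in YC ovaries. Hsd17b3, the testosterone-forming enzyme of the testis, had 0 to 4 counts per library.

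Upstream sequences were at hand for 3 of the 5 genes in the RefSeq table for GRCm38.p6, a build older than the GRCm39 of the deposited tables. Insl3 and Srd5a1 are shown because both passed the test in at least 1 comparison, in opposite directions. Each window is the 250 bases before the annotated start, 5′ to 3′ on the gene's strand. Capitals mark AAGGTC, the core of the half-site bound by Nr5a1 (steroidogenic factor) and Nr5a2, or its reverse complement.
Insl3 (GRCm38.p6 chr8:71689002-71689251, plus strand): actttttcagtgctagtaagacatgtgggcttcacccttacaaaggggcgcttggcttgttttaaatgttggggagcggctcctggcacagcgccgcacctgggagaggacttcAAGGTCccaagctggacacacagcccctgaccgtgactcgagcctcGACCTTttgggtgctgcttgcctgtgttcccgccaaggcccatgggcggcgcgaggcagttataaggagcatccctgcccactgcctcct
Srd5a1 (GRCm38.p6 chr13:69611464-69611713, minus strand): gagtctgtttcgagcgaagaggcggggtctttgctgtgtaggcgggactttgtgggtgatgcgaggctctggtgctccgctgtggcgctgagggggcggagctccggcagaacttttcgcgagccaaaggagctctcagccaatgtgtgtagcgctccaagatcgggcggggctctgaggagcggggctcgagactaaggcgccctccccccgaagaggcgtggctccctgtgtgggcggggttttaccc
The Insl3 window held AAGGTC at -136 on the gene's strand and at -90 on the opposite strand, counted from the start to the first base of the match. The Srd5a1 window and the windows at the 3 annotated starts of Cyp19a1 held none. On either strand, AAGGTC was in 12.3% of the 32851 windows of 300 bases in the table. The longer half-site AAGGTCA (4.72% of windows), the cyclic AMP response element TGACGTCA (1.79%) and the GATA motifs TGATAA (9.05%) and AGATAA (11.2%) were in none of the 5 windows of these genes. AAGGTC lies within AAGGTCA and was searched after the other 4 had given no match. A 3′ tag does not show which of the 3 Cyp19a1 starts a transcript came from.

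Insl3 was lower in aged ovaries than in young ones and had the smallest adjusted p of the 5 genes in both of these comparisons. It had 8.97, 13.9, 10.4, 10.2, 8.36 and 7.50 CPM in OC+SM ovaries, 9.40, 7.02, 6.71, 11.3, 7.64 and 6.37 CPM in OC ovaries, and 27.8, 22.2, 23.7, 24.7, 36.6 and 20.3 CPM in YC ovaries. All 12 aged ovaries lay below all 6 young ones, while the ranges of the aged groups overlapped. Insl3 fell to 8.07 ± 1.91 CPM in OC ovaries, against 25.9 ± 5.83 CPM in YC ovaries (SD, n = 6 each), a fold of 0.312 and a log2 fold change of -1.68 ± 0.17 (SE, 95% interval -2.03 to -1.33, edgeR adjusted p = 7.19e-07). In OC+SM ovaries it averaged 9.89 ± 2.24 CPM, a fold of 0.383 and a log2 difference of -1.39 ± 0.16 from YC (interval -1.72 to -1.05, edgeR adjusted p = 3.76e-06). Both age differences stayed past the threshold in all 33 alternative settings. Without YC 3 they were -1.71 and -1.41 on the log2 scale for OC and OC+SM against YC.

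Insl3 overlaps another gene. In the GENCODE M21 annotation, 404 of its 623 exonic bases (64.8%) also belong to Jak3, a cytokine receptor kinase gene on the same strand. How the authors' counting assigned tags there is not known, because no source used here states its annotation. Jak3 had 3.45 to 7.55 CPM in OC+SM, 3.68 to 5.17 CPM in OC and 2.98 to 5.99 CPM in YC ovaries, and did not pass the test in any comparison (log2 -0.15 ± 0.19 for OC against YC). With the counts of Insl3 and Jak3 summed, the age difference was -1.29 ± 0.14 for OC against YC (edgeR adjusted p = 2.35e-06) and -1.08 ± 0.14 for OC+SM against YC (edgeR adjusted p = 1.17e-05). The summed counts were thus lower in both aged groups as well.

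**Figure D1:**
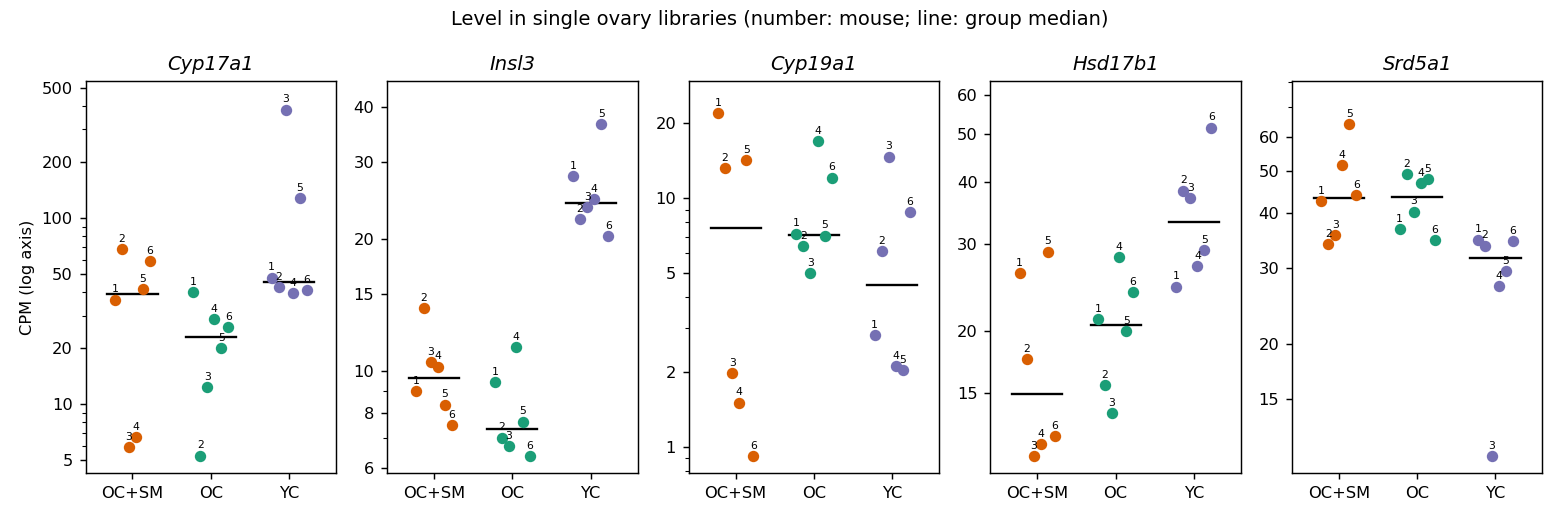
CPM (log axes) of the 5 genes in each of 18 ovaries, OC+SM, OC and YC from left to right, with mouse numbers beside the points and lines at group medians. All aged ovaries lie below all young ones for Insl3, YC 3 is the highest point for Cyp17a1 (383 CPM) and the lowest for Srd5a1 (11.1 CPM), and Cyp19a1 in OC+SM spreads from 0.92 to 22.0 CPM.

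Cyp17a1, made by the same theca and interstitial cells, varied far more from mouse to mouse. It had 36.5, 68.1, 5.89, 6.69, 41.4 and 59.1 CPM in OC+SM ovaries. OC ovaries had 40.2, 5.31, 12.4, 28.6, 20.1 and 26.1 CPM. YC ovaries had 48.0, 42.5, 383, 39.8, 128 and 41.3 CPM. In YC, 4 of 6 mice sat between 39.8 and 48.0 CPM and YC 5 and YC 3 lay far above them, whereas 5 of 6 OC and 3 of 6 OC+SM ovaries lay below the lowest YC ovary. The means were 36.3 ± 25.9, 22.1 ± 12.4 and 114 ± 136 CPM in OC+SM, OC and YC (SD, n = 6 each). The log2 fold change was -2.35 ± 0.76 for OC against YC (interval -3.97 to -0.74, edgeR adjusted p = 0.059) and -1.64 ± 0.72 for OC+SM against YC (interval -3.18 to -0.10, edgeR adjusted p = 0.123), and neither passed the threshold. The size rested on YC 3: without it the values were -1.44 (edgeR adjusted p = 0.189) and -0.73 (edgeR adjusted p = 0.463). The DESeq2 and limma tests called the OC against YC difference on all 18 libraries (adjusted p = 0.00973 with DESeq2 and 0.0408 with limma).

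The spread of Cyp17a1 within groups was among the widest in the ovary. The SD of log2 CPM within groups was 1.33 for both Cyp17a1 and Cyp19a1, larger than that of 99.2% of the 16959 genes, whose median was 0.24. It was 0.31 for Insl3, larger than that of 61.5% of genes, 0.47 for Hsd17b1 (79.7%) and 0.43 for Srd5a1 (76.2%). Among OC+SM mice the highest Cyp17a1 level was 11.6 times the lowest, against 7.58 times among OC and 9.63 times among YC mice. The YC value rests on YC 3, with 383 CPM where the next highest YC ovary had 128 CPM. Insl3 had a highest to lowest ratio of only 1.85, 1.77 and 1.80 in OC+SM, OC and YC. The mice lowest in Cyp17a1, OC+SM 3 and 4 and OC 2, were not the lowest of their groups in Insl3.

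Of the granulosa enzymes, Cyp19a1 passed the test in no comparison. It had 22.0, 13.2, 1.98, 1.51, 14.3 and 0.92 CPM in OC+SM ovaries, 7.20, 6.42, 4.99, 16.9, 7.08 and 12.1 CPM in OC ovaries, and 2.82, 6.14, 14.7, 2.12, 2.03 and 8.76 CPM in YC ovaries. OC+SM mice fell apart into 3 ovaries between 13.2 and 22.0 CPM and 3 between 0.92 and 1.98 CPM. OC values lay between 4.99 and 16.9 CPM. YC values spread widely too, with YC 1, 4 and 5 at 2.03 to 2.82 CPM and YC 2, 3 and 6 at 6.14 to 14.7 CPM. The means were 8.98 ± 8.76, 9.12 ± 4.51 and 6.10 ± 4.98 CPM in OC+SM, OC and YC (SD, n = 6 each). The log2 fold change was 0.62 ± 0.73 for OC against YC (interval -0.94 to 2.17, edgeR adjusted p = 0.676) and 0.60 ± 0.72 for OC+SM against YC (interval -0.93 to 2.13, edgeR adjusted p = 0.607). Without YC 3, whose 14.7 CPM was the highest young value, these were 1.06 and 1.04. The intervals leave room for a large difference in either direction, which could not be detected at this spread.

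Hsd17b1 was lower in OC+SM than in YC ovaries, and its difference between OC and YC ovaries missed the threshold. It had 26.2, 17.6, 11.2, 11.9, 29.0 and 12.3 CPM in OC+SM ovaries, 21.2, 15.6, 13.7, 28.2, 20.03 and 24.0 CPM in OC ovaries, and 24.6, 38.5, 37.2, 27.1, 29.2 and 51.6 CPM in YC ovaries. The lowest YC ovary exceeded 4 of 6 OC+SM and 5 of 6 OC ovaries, and the groups overlapped through the rest. Hsd17b1 fell to 18.01 ± 7.80 CPM in OC+SM ovaries, against 34.7 ± 9.94 CPM in YC ovaries (SD, n = 6 each), a fold of 0.52 and a log2 difference of -0.94 ± 0.27 (interval -1.51 to -0.38, edgeR adjusted p = 0.0186). OC ovaries averaged 20.5 ± 5.35 CPM, a log2 difference of -0.76 ± 0.27 from YC (interval -1.33 to -0.19) that missed the threshold with edgeR (adjusted p = 0.0843) and passed it with DESeq2 (adjusted p = 0.0465) and limma (adjusted p = 0.0208). Leaving out YC 3 gave -0.74 for OC against YC and -0.93 for OC+SM against YC (edgeR adjusted p = 0.132 and 0.0357).

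Srd5a1 was higher in OC+SM than in YC ovaries, and here too the difference between OC and YC ovaries missed the threshold. It had 42.6, 34.04, 35.6, 51.7, 64.1 and 44.1 CPM in OC+SM ovaries, 36.7, 49.2, 40.4, 47.0, 47.9 and 34.7 CPM in OC ovaries, and 34.8, 33.7, 11.1, 27.2, 29.5 and 34.5 CPM in YC ovaries. In each aged group 5 of 6 ovaries lay above the highest YC ovary. Srd5a1 rose to 45.4 ± 11.2 CPM in OC+SM ovaries, against 28.5 ± 9.05 CPM in YC ovaries (SD, n = 6 each), a fold of 1.58 and a log2 difference of 0.66 ± 0.22 (interval 0.20 to 1.12, edgeR adjusted p = 0.0376). OC ovaries had 42.7 ± 6.22 CPM, a log2 difference of 0.58 ± 0.22 from YC (interval 0.11 to 1.04) that missed the threshold (edgeR adjusted p = 0.109). YC 3, with the lowest Srd5a1 level of all ovaries, enlarged both differences, which were 0.50 (edgeR adjusted p = 0.0189) and 0.42 (edgeR adjusted p = 0.0775) without it for OC+SM and OC against YC. The call for OC+SM against YC was lost when any of 6 single libraries was left out: YC 4, YC 5, or OC+SM 1, 4, 5 or 6.

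Srd5a1 also has neighbours that can share its tags. A predicted gene, Gm17108, shares 476 of the 2909 exonic bases of Srd5a1 (16.4%) on the same strand and had 0.32 to 2.59 CPM. Nsun2, an RNA methyltransferase gene on the opposite strand, overlaps its span without a shared exonic base, and no source used here states whether the counting used strand. With all 3 genes summed, OC+SM against YC was 0.35 ± 0.09 on the log2 scale (edgeR adjusted p = 0.0085) and OC against YC was 0.20 ± 0.09 (edgeR adjusted p = 0.2). Nsun2 alone was at -0.04 ± 0.08 for OC against YC and 0.16 ± 0.08 for OC+SM against YC. Cyp17a1, Cyp19a1 and Hsd17b1 overlap no annotated gene. Naglu and Coasy, named here as genes near Hsd17b1, were both called higher in OC+SM than in YC ovaries (log2 0.31 ± 0.10 and 0.24 ± 0.08, edgeR adjusted p = 0.0325 and 0.031), opposite in sign to Hsd17b1.

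Counted over the 5 genes, 1 was called between OC and YC ovaries, Insl3, which was lower. Over all 16959 genes 11.3% were called in that comparison, 6.03% lower and 5.25% higher, and 4.17% had OC values that lay wholly below the YC values, as Insl3 had. Before adjustment, 4 of the 5 had a p under 0.05 there, and Cyp19a1 did not. The share of all genes with such a p is not given here, so these 4 are not set against a background. Between OC+SM and YC ovaries 3 of the 5 were called, Insl3 and Hsd17b1 lower and Srd5a1 higher, where 22.4% of all genes were called, 10.9% lower and 11.5% higher, and 4.65% had OC+SM values wholly below the YC values, as Insl3 had. By group mean, Insl3, Cyp17a1 and Hsd17b1 were highest in YC ovaries, Srd5a1 was highest in OC+SM and Cyp19a1 in OC, and the aged groups did not differ beyond their spread in any of these orders. Between OC+SM and OC ovaries 0 of the 5 were called by edgeR, DESeq2 or limma, and 0 had an unadjusted p under 0.05, where edgeR called 1.04% of all genes.

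**Figure D2:**
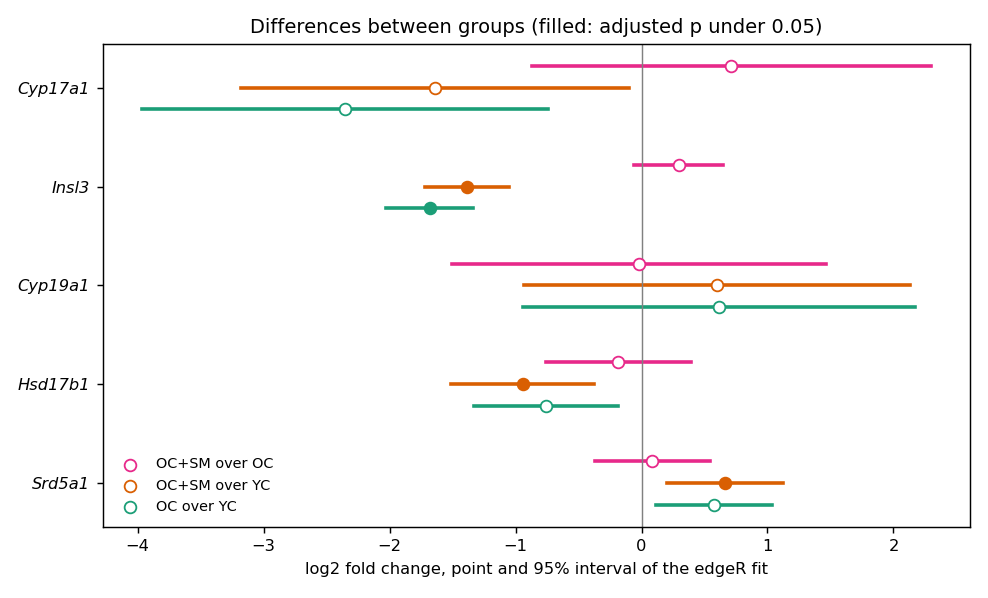
Log2 fold change (x axis) with its 95% interval from the edgeR fit for each gene and comparison, filled where the adjusted p was under 0.05. Insl3 is filled in both comparisons with YC, Hsd17b1 (-0.94) and Srd5a1 (0.66) only for OC+SM over YC, and every interval for OC+SM over OC spans 0.

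No member passed the test between OC+SM and OC ovaries. Insl3 stood at 0.29 ± 0.17 on the log2 scale (interval -0.06 to 0.64, edgeR adjusted p = 0.39), with 3 of 6 OC ovaries below the lowest OC+SM ovary. Cyp17a1 was at 0.71 ± 0.74 (interval -0.87 to 2.30, edgeR adjusted p = 0.684), Cyp19a1 at -0.02 ± 0.70 (interval -1.51 to 1.47), Hsd17b1 at -0.18 ± 0.27 (interval -0.76 to 0.39) and Srd5a1 at 0.09 ± 0.21 (interval -0.37 to 0.54). For Insl3 and Srd5a1 the intervals leave room for a log2 increase of no more than 0.64 and 0.54 with Samul-tang. For Cyp17a1 and Cyp19a1 the intervals reach 2.30 and 1.47 upward and -0.87 and -1.51 downward, so the data do not show that these genes were alike with and without Samul-tang. The comparisons of OC+SM and of OC with YC share the 6 YC libraries.

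Cyp19a1 and Hsd17b1, the estrogen-forming pair of granulosa cells, varied together from mouse to mouse. Within OC+SM, ovaries 3, 4 and 6 were the lower ones in both (0.92 to 1.98 CPM of Cyp19a1 and 11.2 to 12.3 CPM of Hsd17b1). Ovaries OC+SM 1, 2 and 5 were the higher ones in both (13.2 to 22.0 and 17.6 to 29.0 CPM). These places hold within OC+SM only, as the 17.6 CPM of Hsd17b1 in OC+SM 2 lay below the lowest YC ovary (24.6 CPM). Pearson's r of log2 CPM was 0.905 in OC+SM (Spearman's rho 0.714), 0.928 in OC (rho 1) and 0.771 in YC (rho 0.6) over 6 libraries each. By exact permutation over 720 pairings, only the OC relation had an unadjusted p under 0.05 (r, p = 0.00972, rho, p = 0.00278), and none of the 30 relations between members within groups passed after Benjamini-Hochberg adjustment (for OC, exact adjusted p = 0.292 for r and 0.0833 for rho). A rho of 1 has the smallest p that 6 libraries allow, and alone among 30 relations it could not pass this adjustment. The adjusted p of rho therefore cannot decide on the OC relation. With the 2 libraries farthest from the median Cyp19a1 level left out, r was 0.888 in OC+SM, 0.922 in OC and 0.799 in YC. Over all 18 libraries, r of the deviations from group means was 0.855, the strongest of the 10 member pairs. Both values of a point come from 1 library and share its depth, so this r describes the libraries and carries no test.

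The theca pair varied together less closely. Pearson's r of Insl3 and Cyp17a1 was -0.118 in OC+SM, 0.530 in OC and 0.280 in YC. With the 2 libraries farthest from the median Cyp17a1 level left out, it was 0.506, 0.458 and 0.644 in the same order. For Insl3 and Cyp17a1, r of the deviations from group means was 0.187 over 18 libraries. Cyp17a1 and Srd5a1 had -0.497, and within YC the r of -0.885 (exact permutation p = 0.0653) turned to 0.643 once the 2 libraries farthest from the median, YC 3 among them, were left out. Cyp17a1 had 0.457 with Cyp19a1 and 0.441 with Hsd17b1, and the remaining pairs ran from -0.217 to 0.09.

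**Figure D3:**
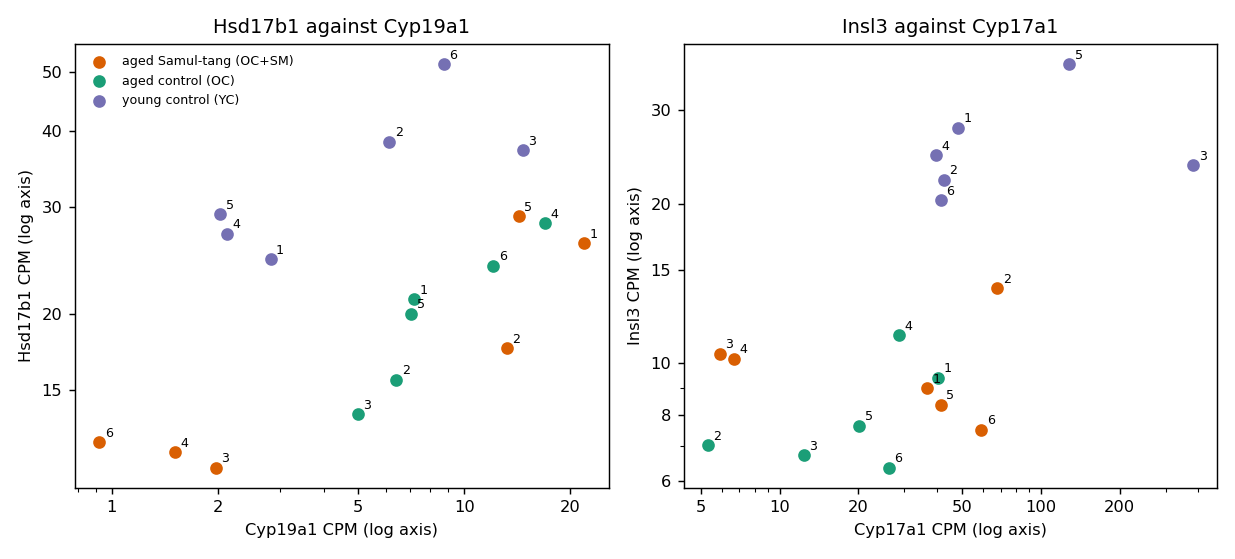
CPM of Hsd17b1 against Cyp19a1 (left) and of Insl3 against Cyp17a1 (right), log axes, 1 point per ovary with its mouse number. OC+SM 3, 4 and 6 are lower in both Cyp19a1 and Hsd17b1 than OC+SM 1, 2 and 5, while Insl3 separates YC from the aged ovaries at any Cyp17a1 level.

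Ratios of tag counts within a library show how the steps stood to each other. They are log2 ratios of CPM + 0.5 and compare tags, not amounts of enzyme. Cyp17a1 over Cyp11a1, the side-chain cleavage enzyme that starts steroid synthesis, had a median of -7.25 in OC+SM (range -10.20 to -6.74), -7.98 in OC (-10.15 to -7.28) and -6.70 in YC (-6.88 to -3.22). OC and YC did not overlap in this ratio. Cyp11a1 alone did not overlap between them either, at a log2 difference of 0.45 higher in OC, whereas the Cyp17a1 ranges overlapped. No share of other gene pairs that separate OC from YC is given here. Cyp19a1 over Cyp17a1 had a median of -1.67 in OC+SM (range -5.39 to -0.72), -1.16 in OC (-2.40 to 0.25) and -3.91 in YC (-5.67 to -2.17). Of the YC ovaries, YC 6 alone lay above the lowest OC value. Hsd17b1 over Cyp19a1 had a median of 1.62 in OC+SM (range 0.25 to 3.17), 1.29 in OC (0.72 to 1.49) and 2.74 in YC (1.31 to 3.55), and it was narrowest in OC. Insl3 over Cyp17a1 had medians of -2.11, -1.32 and -0.96 in OC+SM, OC and YC with wide overlap.

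**Figure D4:**
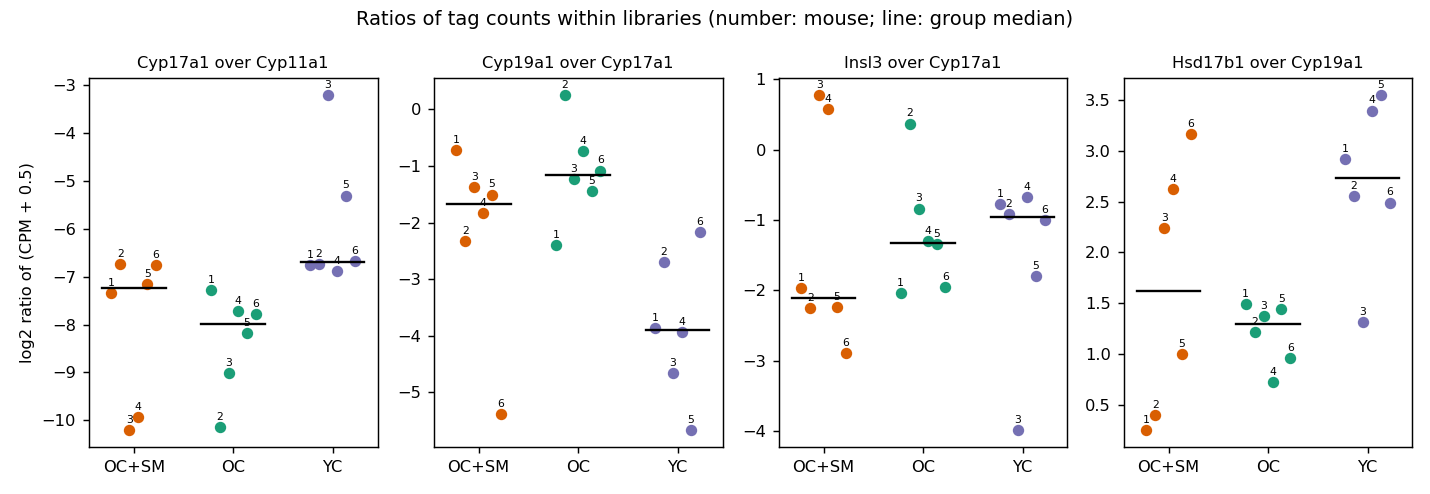
Log2 ratios of CPM + 0.5 (y axes) within each of 18 libraries, by group, with mouse numbers and group medians. Cyp17a1 over Cyp11a1 separates OC (at most -7.28) from YC (at least -6.88), and OC+SM 3 and 4 and OC 2 hold the lowest values. The level of Cyp11a1 alone also separates OC from YC, whereas that of Cyp17a1 alone does not.

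Transcripts with the most similar pattern to each member, over all 18 libraries and with other members and predicted genes left out, are a description with no test. For Cyp17a1 they were Meg3, Fabp3, Eif4e3, Nr5a1 and Grin2b (r 0.855 to 0.895), and r of the deviations from group means was 0.778 to 0.848. Nr5a1, a nuclear receptor of steroid-making cells, was highest in YC 3 (152 CPM against 72 to 118 in the other 17), as was Cyp17a1. For Cyp19a1 they were Inhba, Grem1, Zpld1, Inhbb and Comp (r 0.822 to 0.923), with deviations at 0.841 to 0.951. Inhba, an activin and inhibin subunit of granulosa cells, had 64.9, 23.0 and 38.0 CPM in OC+SM 3, 4 and 6, against 382, 187 and 251 CPM in OC+SM 1, 2 and 5. For Hsd17b1 they were Bmp3, Plxnc1, Fam13a and Socs2 (r 0.898 to 0.926), with deviations at 0.825 to 0.882. For Srd5a1 they were Eva1b, Wnt10a, Grhpr, Cox6b1 and Wnt6 (r 0.886 to 0.927), with deviations at 0.826 to 0.881. For Insl3 they were Bcan, Adamts2, Elavl2 and Rgs2 (r 0.882 to 0.888), but r of their deviations was -0.317 to 0.414, so this likeness lay mostly in the step between the young and aged groups.

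The synthesis partners that passed the test, Cyp11a1 and Hsd3b1 among them, were higher in aged ovaries. Of 14 listed synthesis partners 12 were tested, and between OC and YC ovaries 4 were called higher and 0 lower, with a list median log2 fold change of 0.29 against 0.01 for all genes. Over all genes, 5.25% were called higher and 6.03% lower there, and 11.5% higher and 10.9% lower in OC+SM against YC. The same shares apply to the lists that follow. Cyp11a1 averaged 6712 ± 665 CPM in OC+SM, 6258 ± 322 CPM in OC and 4583 ± 614 CPM in YC ovaries (SD, n = 6 each), and was 0.45 ± 0.08 higher in OC than in YC on the log2 scale (edgeR adjusted p = 0.000365). Hsd3b1, which makes progesterone from pregnenolone, rose by 0.37 ± 0.07 and Cyb5b, a mitochondrial cytochrome, by 0.27 ± 0.07. Hsd3b6 rose by 1.33 ± 0.33 on 5 to 63 counts per library, and as a close paralog of Hsd3b1 its tags are uncertain. In OC+SM against YC ovaries the same 4 and Fdxr, an electron donor to mitochondrial steroid enzymes (0.35 ± 0.09), were called higher and 0 lower, with a median of 0.32. Star (0.18 ± 0.21), Cyb5a, which aids the lyase step of Cyp17a1 (0.17 ± 0.19), and Por, which passes electrons to it and to aromatase (0.34 ± 0.11), did not pass between OC and YC with edgeR. Por (edgeR adjusted p = 0.0526) and Fdxr (edgeR adjusted p = 0.0603) were called there by DESeq2 and limma.

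Among 9 tested genes for breakdown and conjugation, of 14 listed, Akr1c14, which reduces dihydrotestosterone further (-0.82 ± 0.20, edgeR adjusted p = 0.0124), and Hsd17b11 (-0.28 ± 0.07) were called lower in OC than in YC ovaries and 0 were higher. In OC+SM against YC ovaries both were called lower again, while Hsd17b2, which oxidizes estradiol back to estrone (0.88 ± 0.25, edgeR adjusted p = 0.0116), and Srd5a3 (0.28 ± 0.09, edgeR adjusted p = 0.0364, a call lost in 14 of 32 alternative settings) were called higher. The medians of the list were 0.11 for OC and 0.13 for OC+SM against YC. Akr1c18, a list gene that edgeR did not call, was at 2.01 ± 0.65 for OC against YC (edgeR adjusted p = 0.0612). It ranged from 118 to 1624 CPM in OC and from 101 to 245 CPM in YC ovaries. This difference passed the threshold with DESeq2 and limma. Srd5a2, the other testosterone reductase, was scarce, at 0.80 to 1.80 CPM in OC+SM, 0.87 to 1.77 CPM in OC and 0.51 to 1.53 CPM in YC ovaries.

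Receptors for the products differed in both directions. Esr1, the estrogen receptor of theca and stroma, rose to 52.6 ± 3.26 CPM in OC ovaries, against 29.4 ± 3.69 CPM in YC ovaries (log2 0.84 ± 0.08, edgeR adjusted p = 3.17e-07). Esr2, the estrogen receptor of granulosa cells, fell to 7.74 ± 1.36 CPM in OC ovaries, against 27.9 ± 7.44 CPM in YC ovaries (log2 -1.84 ± 0.18, edgeR adjusted p = 7.77e-07). In OC+SM ovaries they were at 55.9 ± 4.72 and 7.74 ± 1.91 CPM (SD, n = 6 for each mean), 0.93 ± 0.08 and -1.83 ± 0.18 from YC on the log2 scale. Fshr was lower in OC+SM than in YC (-0.80 ± 0.27, edgeR adjusted p = 0.0351), and without YC 3 it was at -0.55 (edgeR adjusted p = 0.134). Lhcgr, the receptor for hCG (0.27 ± 0.30), did not pass between OC and YC. Rxfp2, the Insl3 receptor, had 0 to 4 counts in each library, too few to be tested. Of the 7 listed receptors 5 were tested, and the list medians were -0.48 for OC and -0.74 for OC+SM against YC.

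Of 12 transcription factors of steroid enzyme genes, 2 were called lower in OC than in YC ovaries and 0 higher: Nr5a2, the granulosa and luteal relative of Nr5a1 (-0.61 ± 0.19, edgeR adjusted p = 0.0434, a call lost in 16 of 32 alternative settings), and Foxl2, a granulosa identity factor (-0.37 ± 0.10, edgeR adjusted p = 0.0209, and 0.0512 without YC 3). Nr5a1 itself was at -0.31 ± 0.12 (edgeR adjusted p = 0.0925). In OC+SM against YC ovaries, Foxl2 (-0.64 ± 0.10), Gata6 (-0.35 ± 0.09) and Nr5a2 (-0.79 ± 0.19) were called lower and Nr0b1 (0.69 ± 0.23) and Nr2f1 (0.32 ± 0.10) higher. The list medians were -0.08 for OC and 0.03 for OC+SM against YC.

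Over these 4 lists, 10 of 38 tested genes were called between OC and YC ovaries (14 with DESeq2, 17 with limma), where 11.3% of all genes were, and 17 of 38 between OC+SM and YC (17 with DESeq2, 16 with limma), where 22.4% were. Between OC+SM and OC, where edgeR called 1.04% of all genes, 0 of 38 were called with edgeR and limma and 1, Hsd3b1, with DESeq2. Before adjustment 6 had a p under 0.05, and the share of all genes with such a p is not given here. The list medians there were 0.09 for synthesis partners, 0.11 for breakdown, 0.03 for transcription factors and -0.006 for receptors.

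**Figure D5:**
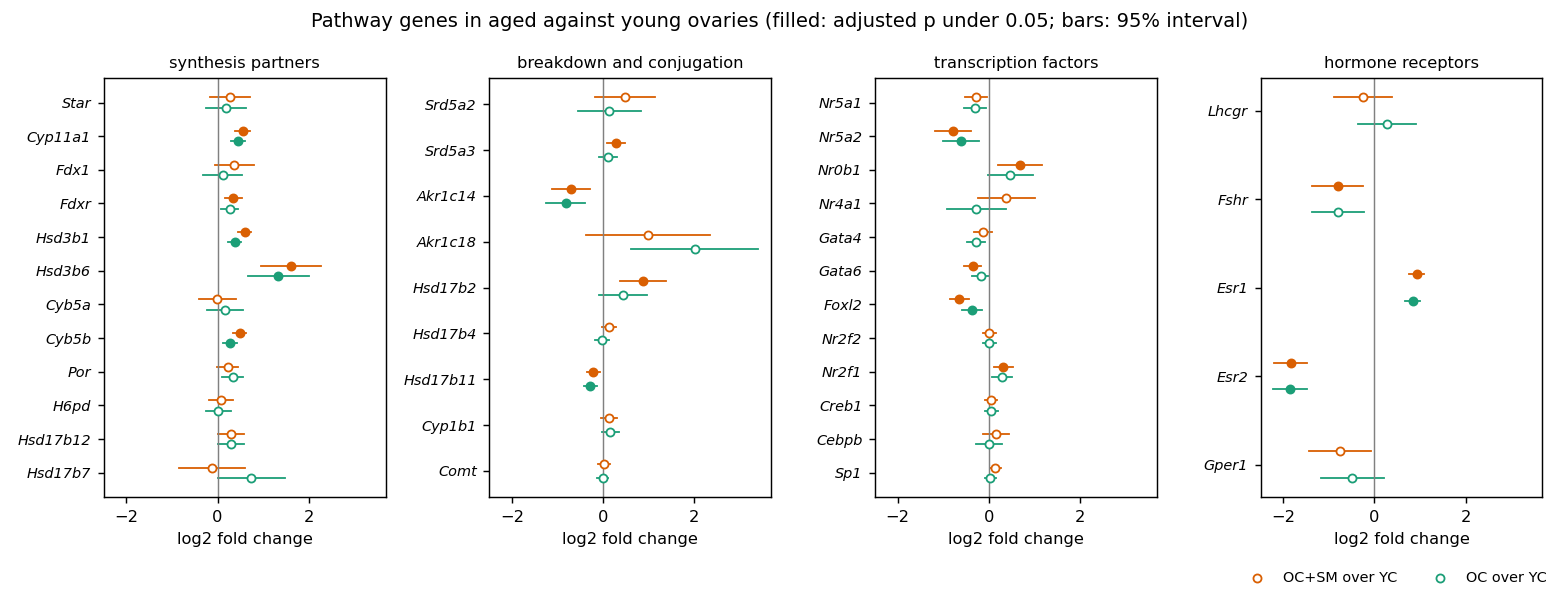
Log2 fold change with 95% interval of the tested genes of the 4 pathway lists, OC+SM over YC (upper) and OC over YC (lower) for each gene, filled where the edgeR adjusted p was under 0.05. Cyp11a1, Hsd3b1 and Esr1 lie right of 0 and Akr1c14, Foxl2, Nr5a2 and Esr2 left of it in both comparisons.

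Markers of the cells that make these transcripts also differed between groups, and their part in the member results was not tested. Over all genes, 6.03% were called lower and 5.25% higher in OC against YC, and 10.9% lower and 11.5% higher in OC+SM against YC. Of the 10 theca and interstitial markers, Ptch1 (-0.72 ± 0.08), Gli1 (-1.04 ± 0.21) and Hhip (-0.74 ± 0.21), which respond to hedgehog signals, were lower in OC than in YC ovaries and Mgarp was higher, and the list summed to 1838 to 2530 CPM in OC+SM, 1781 to 2052 CPM in OC and 1611 to 2327 CPM in YC. In OC+SM against YC ovaries 2 were lower, Ptch1 and Gli1, and 1 higher, Mgarp. The log2 medians of this list were -0.17 for OC and -0.16 for OC+SM against YC. Of 13 tested granulosa markers, 6 were lower and 0 higher in OC than in YC, and 7 were lower and 1 higher in OC+SM than in YC. That list summed to 1076 to 1964 CPM in OC+SM, 1373 to 1871 CPM in OC and 1882 to 2515 CPM in YC ovaries, with log2 medians of -0.45 for OC and -0.41 for OC+SM against YC. The luteal list of 11 genes had 3 higher and 0 lower in both aged groups, Cited4 and the synthesis partners Cyp11a1 and Hsd3b1. It summed to 15860 to 18840 CPM in OC+SM, 15830 to 18530 CPM in OC and 10790 to 14270 CPM in YC. YC 3 held the lowest YC sum of the luteal list and the highest YC sum of the theca and interstitial list. All 5 oocyte markers were lower in both aged groups than in YC, with sums of 16.4 to 36.8 CPM in OC+SM, 18.6 to 31.4 CPM in OC and 58.6 to 96.8 CPM in YC. Between OC+SM and OC ovaries, where edgeR called 1.04% of all genes, 0 of the 42 tested marker genes were called with edgeR and limma and 1, Hsd3b1, with DESeq2. Before adjustment 9 had an edgeR p under 0.05, and the share of all genes with such a p is not given here.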

How the data were processed

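Per the labels' protocols, the QuantSeq kit for 3′ ends gave 1 library per ovary from 18 mice, which yields about 1 tag per transcript. The build GRCm39 and the tools STAR 2.7.9a, RSEM 1.3.3 and FastQC 1.9 are credited to the submitters' processing notes, which give no order or role. The authors deposited, per the file headers, expected counts, TPM, FPKM and gene lengths for 55416 genes per library. Expected counts divide tags that match several genes, so they need not be whole (86.7% of the members' values were within 0.005 of a whole number). The deposited TPM values divide by length, which 3′ tags do not need, and served only as an alternative, with a pseudocount of 1 on the log2 scale. The deposited FPKM values were not used. No source used here states the annotation or the strand setting of the counting. Symbols and overlaps came from GENCODE M21 on GRCm38 by gene identifier (52083 identifiers had a symbol), and coordinates of upstream windows from the RefSeq table for GRCm38.p6.

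Expected counts were rounded and filtered with filterByExpr (10 counts at the median depth, 15 in total), which left 16959 genes. They were scaled by TMM (factors 0.94 to 1.07) and tested with the two-sided quasi-likelihood test of edgeR 4.0.16 (R 4.3.3, robust dispersions), with all 18 libraries in 1 fit of 3 group means. P-values were adjusted by Benjamini-Hochberg over all genes, with calls at an adjusted p under 0.05. DESeq2 1.42.0, limma 3.58.1 (voom with sample weights), other scalings and filters, a fit on the libraries compared, a replicate block and each library left out were alternatives. The test was run on simulated counts with known changes first. Replicate numbers did not pair libraries: correlations of same-numbered deviations were -0.118 to 0.074. Over 153 pairs of libraries no pair agreed within sampling noise. The labels name separate mice per group, and the edgeR p-values set each group difference against the spread between these mice. That spread was estimated over all 3 groups, with information shared across genes.

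Named genes were the 5 members, members of 11 lists (synthesis partners, breakdown, transcription factors, receptors, and markers of theca, granulosa, luteal, adrenal, oocyte, oviduct and testis-type cells) that were called or sat on a panel of 10 genes, the 5 most similar transcripts per member, and overlapping or neighbouring genes. Cyp11b1, Fdx1, Inhba, Amh and Akr1c18 were named after their values were seen. A receptor and 2 of the most similar transcripts are not reported here. The members and lists were chosen with earlier results of these data known.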

Additional observations from a re-analysis of the deposited data

Results flagged for a closer look

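In groups of 6, a library was set apart when its gap to the nearest other library exceeded Dixon's 95% critical value as a share of the group's range. The rate of about 1 in 20 that chance gives holds for independent normal values. These tests reuse the same 18 libraries, so their count is not set against that rate. Of 143 group tests, 17 were set apart so. YC 3 accounts for 10 of them. Its Cyp17a1 was 383 CPM and its Srd5a1 11.1 CPM, and among the other genes it had 463 CPM of Mgarp, 203 CPM of Fdxr, 8.84 CPM of Fshr, 86.3 CPM of Por, 414 CPM of Lhcgr, 152 CPM of Nr5a1 and 2.98 CPM of Jak3. Its log2 ratio of Insl3 over Cyp17a1 was -3.99.

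In other libraries, Hsd17b11 stood apart with 53.3 CPM in OC 3, Inha with 602 CPM in YC 6, Gata6 with 68.8 CPM in OC+SM 2, Hsd17b2 with 6.84 CPM in OC 6, Jak3 with 7.55 CPM in OC+SM 3 and Nsun2 with 88.2 CPM in OC+SM 6. The log2 ratio of Cyp19a1 over Cyp17a1 was -5.39 in OC+SM 6, where Cyp19a1 had 0.92 CPM and Cyp17a1 59.1 CPM.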

How the results depend on the processing

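Insl3 kept its direction and its side of the threshold in all 33 alternatives of each comparison. With each library left out in turn, its log2 fold change ran from -1.80 to -1.56 for OC against YC, from 0.17 to 0.42 for OC+SM against OC and from -1.51 to -1.26 for OC+SM against YC.

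Cyp17a1 ran from -2.62 to -1.44 (OC against YC), 0.43 to 0.97 (OC+SM against OC) and -1.92 to -0.73 (OC+SM against YC) with each library left out, and the first was called without OC+SM 3 (adjusted p = 0.047). It was also called with DESeq2 (-2.36), with limma (-1.69, adjusted p = 0.0408) and with non-robust dispersions (-2.35, adjusted p = 0.0184). Hsd17b1 ran from -0.87 to -0.61, -0.37 to -0.07 and -1.13 to -0.79 in the same comparisons. For OC against YC it was called with DESeq2 (-0.76), limma (-0.75), the 12 libraries compared (-0.76, adjusted p = 0.038), log2 (TPM + 1) (-0.76, adjusted p = 0.0474) and non-robust dispersions (-0.76, adjusted p = 0.0401), and for OC+SM against YC its call was lost with YC 3 and OC+SM 6 left out (-0.83, adjusted p = 0.0652). Srd5a1 ran from 0.41 to 0.64, -0.04 to 0.15 and 0.50 to 0.73. It was called for OC against YC with limma (0.49, adjusted p = 0.0342), and its OC+SM against YC call was lost with no filter (0.68, adjusted p = 0.0716) and with the 12 libraries compared (0.66, adjusted p = 0.0826). Its OC+SM against OC value reversed to -0.036 without OC+SM 5.

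Cyp19a1 ran from 0.35 to 1.06, -0.52 to 0.25 and 0.10 to 1.04 and was never called. Its OC+SM against OC value, -0.02, reversed with library totals (0.063), with YC 3 and OC+SM 6 left out (0.22), and without OC 4 (0.25), OC 6 (0.08) or OC+SM 3 (0.19), 4 (0.19) or 6 (0.22). Ratios with a pseudocount of 0.1 moved by less than the spread.

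Genes called between OC+SM and OC, 176, were 706 with library totals, 665 with DESeq2, 297 with limma, 45 with the 12 libraries compared, 483 with YC 3 and OC+SM 6 left out, and 32 (without OC+SM 3) to 593 (without OC+SM 4) with each library left out. For OC against YC, 1912, these ran from 1505 to 2203, and for OC+SM against YC, 3795, from 3090 to 3920. The causes were not tested. Of 52 calls among list genes and comparisons, 40 held in every alternative, 12 were lost in some and 0 reversed. Those lost were of Cyb5b, Foxl2, Gja1, Hhip, Inha and Nr5a2 for OC against YC, and of Akr1c14, Fshr, Hsd17b11, Nr0b1, Nr2f1 and Srd5a3 for OC+SM against YC.

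The replicate numbers share only a number. A fit with the replicate number as a block called 1756, 139 and 3535 genes for OC against YC, OC+SM against OC and OC+SM against YC, and changed no call of a member.

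Cyp19a1 had 15 to 411 counts per library, and the wide intervals of Cyp17a1 and Cyp19a1 come with wide spreads between mice.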
